A study of Homo sapiens with 30 samples.

Results

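The cytosolic ribosomal protein genes were followed by RNA sequencing in A549, a human cell line that was established from a lung adenocarcinoma, in 30 libraries that form 10 groups of 3. Members were the protein-coding entries of the deposited table whose symbols begin with RPL or RPS and a number, together with RPLP0, RPLP1, RPLP2 and RPSA. The pattern took 97 entries, 11 of them RPS6 kinase or RPS4Y genes that were left out, and 86 of the 26801 genes in the table remained. They were 43 proteins of the large subunit, 31 of the small subunit, the 3 proteins of the stalk, 8 paralogs and RPS19BP1, which the symbol pattern also takes although it is not a ribosomal protein.

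Cells in which RSRP1 was knocked out are labelled KOA and wild type cells WTA, and each library was exposed to a magnetic treatment labelled 2H (EX) or left unexposed (NE). Most labels also hold iR, and some hold D3. The labels do not say what iR and D3 stand for, so both are kept as names. The groups are KOA, iR_KOA, iR_KOA_D3, iR_WTA and iR_WTA_D3, each with an exposed and an unexposed set. No wild type without iR was sequenced among the groups used here, so the genotypes were compared within iR and within iR D3. How many clones the knockout represents, the strength of the field and whether the libraries of a group came from separate cultures are not given, so p-values measure only the spread between these libraries.

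Ribosomal proteins are assembled with ribosomal RNA into the small subunit, which reads the messenger RNA, and the large subunit, which joins the amino acids. Their messenger RNAs begin with a terminal oligopyrimidine tract, a C at the start followed by an unbroken run of C and T, through which mTOR signalling and the protein LARP1 set how much of them is translated. In rapidly dividing cancer lines they are among the most abundant messenger RNAs, and some members have a paralog, a second gene for a related protein that is used in particular tissues or states.

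The tract itself is shown here for the members on which the results turn, as 30 bases of the sense strand read 5′ to 3′: 10 before the RefSeq start and 20 from it. Capitals mark the tract where the start base is C and at least 5 C or T follow without a break, the start base included. RPLP0 and RPS6 stand for the stalk and the small subunit. RPL24 and RPS26 were lower in the knockout, RPL37A and RPL31 were higher, and RPL28 was higher after exposure. The last 7 lines show the pairs RPL22 and RPL22L1, RPL26 and RPL26L1, and RPS27 and RPS27L, and the paralog RPL7L1 alone.
RPLP0: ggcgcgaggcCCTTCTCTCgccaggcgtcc
RPS6: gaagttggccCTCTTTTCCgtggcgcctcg
RPL24: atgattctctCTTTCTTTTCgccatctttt
RPS26: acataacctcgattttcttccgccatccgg
RPL37A: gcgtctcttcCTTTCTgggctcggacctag
RPL31: ccttcgcgctCTTCCTTTCCaacttggacg
RPL28: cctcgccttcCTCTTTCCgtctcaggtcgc
RPL22: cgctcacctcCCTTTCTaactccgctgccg
RPL22L1: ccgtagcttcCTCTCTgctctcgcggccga
RPL26: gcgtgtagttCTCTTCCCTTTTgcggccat
RPL26L1: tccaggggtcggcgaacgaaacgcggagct
RPS27: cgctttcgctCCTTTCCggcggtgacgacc
RPS27L: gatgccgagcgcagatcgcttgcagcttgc
RPL7L1: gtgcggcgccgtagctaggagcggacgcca

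These windows come from RefSeq on GRCh38.p14. RPL22L1 lies on the minus strand at chr3:170870176-170870205, RPL26L1 on the plus strand at chr5:172958719-172958748, RPL37A on the plus strand at chr2:216498834-216498863 and RPL24 on the minus strand at chr3:101686699-101686728. The table held 68 of the 86 members, and 47 of these (69.1%) had the tract at a listed start, against 1357 of 27237 other genes (4.98%). Among members of the subunits and the stalk it was 46 of 62 (74.2%). Of 6 paralogs only RPL22L1 had it (16.7%). RPL26L1 has 2 listed starts, neither with the tract. A match describes letters in this window and no more, and the annotated start may differ from the one these cells use.

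Levels are given as FPKM, read fragments scaled to the length counted for each gene and to library size. Levels compared between genes therefore depend on the counted length, which differed widely between members. Of the 86 members, 71 had a median of at least 100 FPKM over the 30 libraries, and 39 of the 100 most abundant nuclear genes were members. RPLP0 (median 1539 FPKM), RPL13A (1469 FPKM) and RPS2 (1442 FPKM) were among the most abundant. The stalk proteins RPLP1 and RPLP2, which together with RPLP0 recruit elongation factors to the ribosome, had medians of 933 and 790 FPKM. The paralogs were far lower in FPKM, with RPL36AL at 187 FPKM the highest, RPL22L1 at 40.7 FPKM and RPL26L1 at 19.8 FPKM. Reads could differ less: RPS27L, at 29.0 FPKM over 6110 counted bases, had at least 5468 reads per library. RPS27, at 566 FPKM over 584 counted bases, had at least 8124. RPL10L and RPL3L, known from testis and from striated muscle, were at or near 0.

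A few members of the standard ribosome were low as well. RPS10 had a median of 2.52 FPKM, RPL17 of 13.9 FPKM and RPL36A of 0.577 FPKM, and each shares exonic bases on the same strand with an annotated read-through gene. RPS10-NUDT3 covers 39.4% of the exonic bases of RPS10, RPL17-C18orf32 covers 24.8% of those of RPL17 and RPL36A-HNRNPH2 covers 8.40% of those of RPL36A. How the counting treated reads in such overlaps is not given, and its part in these levels was not tested. The length behind each FPKM, recovered from the steps between values, ran from 390 bases for RPL39 to 7573 bases for RPL37, and members with longer counted lengths had lower FPKM (Spearman rho -0.56 over 83 members, a description). RPL37 at 64.8 FPKM therefore still rested on at least 12955 reads per library.

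After a filter of at least 1 FPKM in at least 3 libraries, 12086 genes were tested, among them 83 members; RPL36A, RPL3L and RPL10L did not pass. Depth was even, with recovered totals between 34619949 and 38938967 reads. RSRP1 read 2.09 to 7.95 FPKM in the 18 knockout libraries and 37.4 to 63.4 FPKM in the 12 wild type libraries, so no library went against its genotype label. Of 13 markers of A549 cells, 12 had a median of at least 1 FPKM, and KRT19 (0.132 FPKM) did not; summed markers of fibroblasts reached at most 4.38 FPKM and of red cells at most 0.186 FPKM. Immune markers summed to 29.9 to 46.7 FPKM, nearly all of it CD68 and CD14, with PTPRC at most 0.0411 FPKM. Replicates correlated at 0.990 to 0.998, but ribosomal protein genes moved between replicates as a block: in 6 of 10 groups a single library was the lowest of its group for more than 60 of the 83 members. The library iR_KOA_EX replicate 2 stood apart. It was the lowest of its group for 79 members. Its median deviation from the mean of the other libraries of its group was -0.27 on the log2 scale for the members, against -0.02 for all genes. Most results that rest on it are given with and without it.

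Ribosomal protein genes held a smaller part of the transcriptome in every knockout library than in any wild type library. Their summed share of all FPKM was 7.62% to 9.62% in the knockout (median 9.15%, 18 libraries) and 10.4% to 11.5% in the wild type (median 11.2%, 12 libraries). Unexposed iR libraries held 9.45% ± 0.15 in the knockout and 11.2% ± 0.36 in the wild type (SD, n = 3 each). With mitochondrially encoded genes left out of the total the shares were 10.6% to 12.9% and 13.2% to 14.9%, again without overlap. The balance between the subunits differed little: small-subunit genes held a median of 43.7% of the summed subunit FPKM in the knockout and 43.5% in the wild type, and the ranges overlapped.

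**Figure D1:**
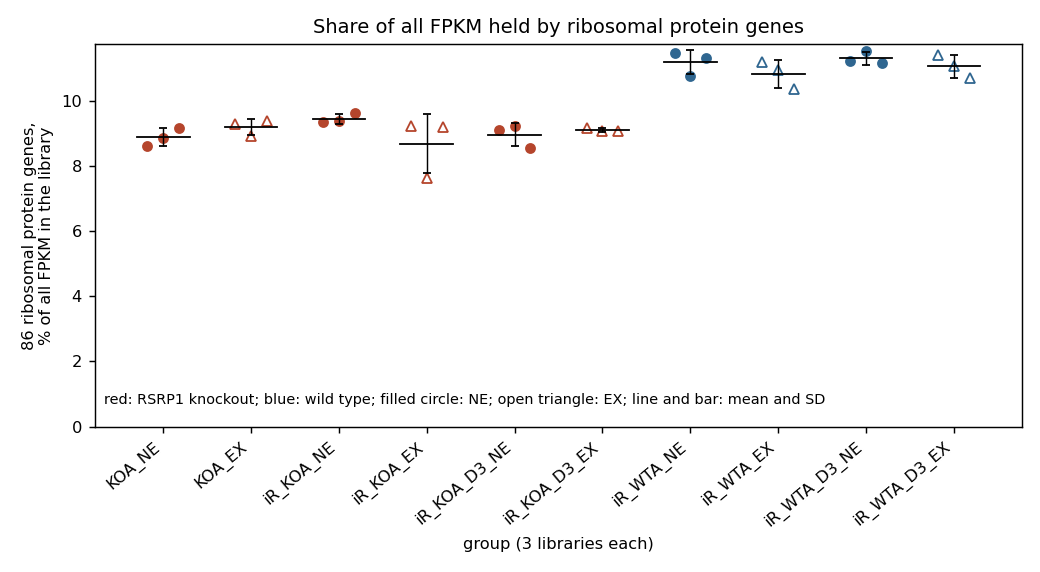
Share of all FPKM held by the 86 ribosomal protein genes (y axis, percent) in each of the 30 libraries, by group (x axis). Filled circles are unexposed and open triangles exposed libraries, red the knockout and blue the wild type, and lines and bars are mean and SD of 3 libraries; all 18 knockout libraries lie at or below 9.62% and all 12 wild type libraries at or above 10.4%, and the lowest point, 7.62%, is iR_KOA_EX replicate 2.

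Knockout and wild type also differed in measures outside the ribosome. Mitochondrially encoded genes held 23.5% to 30.8% of FPKM in the knockout and 20.1% to 23.4% in the wild type. The summed A549 markers were 11724 to 12717 FPKM in the knockout and 8777 to 10200 FPKM in the wild type. Endothelial markers, almost all of it CDH5, summed to 0.288 to 1.32 FPKM in the knockout and 0.0253 to 0.0710 FPKM in the wild type. The part of these differences in the results for ribosomal protein genes was not tested. In bulk RNA, fewer cells of a kind and less RNA per cell cannot be told apart.

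Loss of RSRP1 went with lower levels of most ribosomal protein genes, and the same genes were lower in both settings where the genotypes could be compared. In unexposed iR cells 52 of the 83 members fell and 6 rose, where 37.4% of all genes tested fell and 27.9% rose (limma, adjusted p under 0.05, two-sided). In unexposed iR D3 cells 60 fell and 4 rose, against 44.3% and 24.8% of all genes. The median difference, knockout minus wild type, was -0.25 in iR and -0.31 in iR D3 on the log2(FPKM + 1) scale, against -0.06 and -0.11 for all genes. All 52 members that fell in iR also fell in iR D3, where 8 more did, and 50 fell in the exposed libraries of both as well. The shares of all genes that fell in both settings, or in the exposed libraries as well, are not given here. The comparisons share no library, and across members their differences correlated at Pearson r 0.87 and Spearman rho 0.88, as did all genes at r 0.91 (both descriptions).

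**Figure D2:**
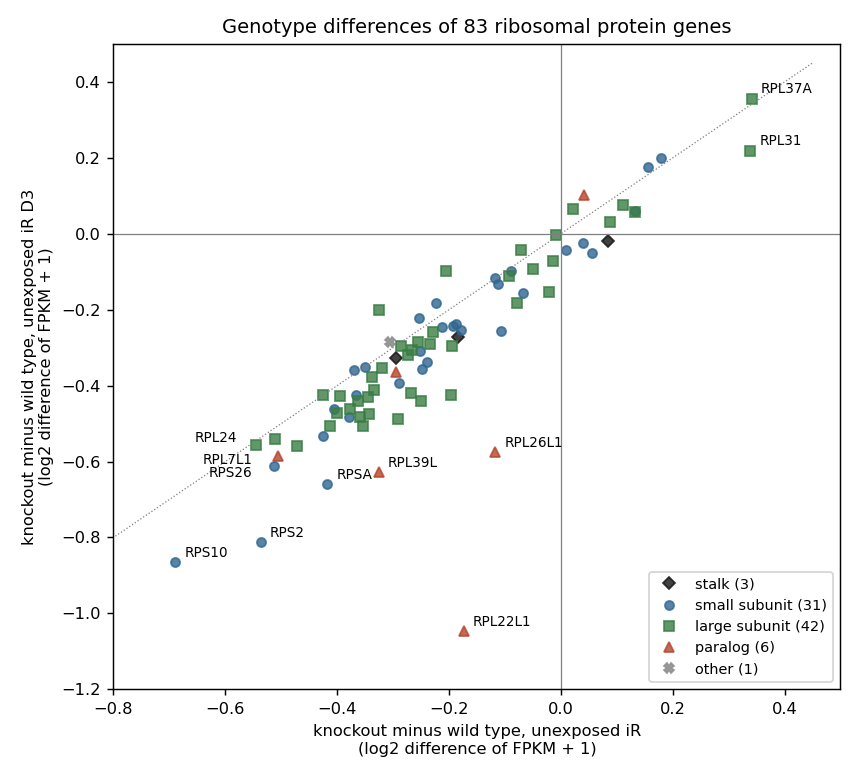
Each point is 1 of the 83 tested ribosomal protein genes, placed by its knockout minus wild type difference in unexposed iR (x axis) and unexposed iR D3 (y axis), both as log2 differences of FPKM + 1. Symbols give the role and the dotted line marks equal differences; most points lie below 0 on both axes, RPL37A and RPL31 lie above 0 on both, and RPL22L1 and RPL26L1 lie far below the line.

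In the stalk, RPLP0, the protein that anchors the others, read 1412, 1439 and 1504 FPKM in the unexposed iR knockout and 1838, 1711 and 1793 FPKM in the wild type. The groups did not overlap, and the difference was -0.29 ± 0.04 (log2, SE; adjusted p = 1.22e-06). RPLP1 read 965, 958 and 962 FPKM against 935, 862 and 928 FPKM, a difference of 0.08 ± 0.11 that did not pass (adjusted p = 0.505). RPLP2 passed only in iR D3, at -0.27 ± 0.09 (adjusted p = 0.0128).

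Of the 31 small-subunit genes 18 fell and 3 rose in iR, and 21 fell and 2 rose in iR D3. RPS2, one of the most abundant members, had the largest fall in the small subunit after RPS10. It read 1418, 1438 and 1493 FPKM in the unexposed iR knockout and 2179, 2008 and 2124 FPKM in the wild type, a difference of -0.54 ± 0.05 (adjusted p = 1.59e-09). In unexposed iR D3 it read 1368, 1416 and 1277 FPKM in the knockout and 2357, 2422 and 2348 FPKM in the wild type, a difference of -0.81 ± 0.05 (adjusted p = 3.92e-13). Every knockout library lay below every wild type library in both settings. RPSA, a small-subunit protein also described as a laminin receptor, read 911, 922 and 970.5 FPKM against 1275, 1211 and 1259 FPKM in iR (-0.42 ± 0.04, adjusted p = 6.63e-09), and its difference in iR D3 was -0.66 ± 0.04 (adjusted p = 8.2e-13).

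RPS26, which sits at the exit of the messenger RNA channel, read 154, 153 and 157 FPKM in the unexposed iR knockout and 232, 208 and 224 FPKM in the wild type. The knockout was lower in every library, by -0.51 ± 0.06 (adjusted p = 2.4e-08). RPS6, the classic substrate of the S6 kinases, fell by 0.37 ± 0.05 on the log2 scale (adjusted p = 1.33e-07) and RPS3, which lines the entry of the channel, by 0.38 ± 0.06 (adjusted p = 2.97e-06). RPS10 had the largest fall of all members in iR, -0.69 ± 0.11 (adjusted p = 9.98e-06), but read only 2.66, 1.94 and 1.95 FPKM against 3.69, 4.71 and 3.97 FPKM, with as few as 25 reads in a library. RPS19 and RPS27A, the latter made as a fusion with ubiquitin, did not pass in either setting.

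Of the 42 large-subunit genes tested 28 fell and 3 rose in iR, and 31 fell and 2 rose in iR D3. RPL24 read 481, 459 and 482 FPKM in the unexposed iR knockout and 702, 659 and 716 FPKM in the wild type (-0.55 ± 0.05, adjusted p = 1.68e-09). RPL5 and RPL11, which carry the 5S ribosomal RNA and can bind the p53 regulator MDM2, fell by 0.27 ± 0.04 (adjusted p = 4.64e-07) and by 0.34 ± 0.06 (adjusted p = 3.1e-05) on the log2 scale. RPL3, near the catalytic centre, fell by 0.29 ± 0.05 (adjusted p = 4.98e-06) and, with D3, by 0.49 ± 0.05 (adjusted p = 7.5e-10). RPL41, which encodes a very short peptide, fell by 0.38 ± 0.10 (adjusted p = 0.00169). RPL4 lay near the limit, at -0.09 ± 0.03 in iR D3 (adjusted p = 0.0099), and changed sign under median-of-ratios scaling.

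A small set of members went the other way. RPL37A read 192, 191 and 196 FPKM in the unexposed iR knockout and 156, 145 and 155 FPKM in the wild type, a difference of 0.34 ± 0.08 (adjusted p = 8e-04), and was higher in iR D3 by 0.36 ± 0.08 (adjusted p = 0.000478). RPL31 read 203, 204 and 206 FPKM against 170, 153 and 162 FPKM, a difference of 0.34 ± 0.08 (adjusted p = 0.000547). RPS16 was higher by 0.16 ± 0.06 (adjusted p = 0.0367). RPL37A, RPL31 and RPS16 rose in both unexposed settings, and RPL37A and RPL31 also in both exposed ones. RPL13A and RPS7 rose in iR alone, by 0.13 ± 0.05 each (adjusted p = 0.0343 and 0.0257).

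Across the iR libraries, 34 of the 83 members (41.0%) were lower in each of the 12 knockout libraries than in each of the 12 wild type libraries, a pattern shown by 10.7% of all genes tested. They included RPLP0, RPS2, RPSA, RPS6, RPL24, RPL3, RPL5, RPL11, RPL7L1 and RPL36AL. No member was higher in every knockout library, where 10.1% of all genes were. Without iR_KOA_EX replicate 2 the counts were 34 members lower (11% of all genes) and 4 members higher (10.8% of all genes). They included RPL37A, at 182 to 209 FPKM against 132 to 164 FPKM, RPL31 and RPS16.

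Paralogs and their partners did not always move together between genotypes. RPL22 fell by 0.27 ± 0.04 in iR and by 0.32 ± 0.04 in iR D3 (adjusted p = 3.06e-06 and 2.23e-07), and its paralog RPL22L1 fell by 0.17 ± 0.06 in iR and by 1.05 ± 0.06 in iR D3 (adjusted p = 0.0188 and 1.13e-13). RPL39, which lines the peptide exit tunnel, fell by 0.42 ± 0.07 in both settings, and RPL39L, known from testis and from tumours, by 0.33 ± 0.08 and 0.63 ± 0.08. RPL26 did not pass in either, with differences of -0.01 and -0.002 (SE 0.05 each), where RPL26L1 fell by 0.58 ± 0.07 in iR D3 alone (adjusted p = 3.5e-08). RPL7 fell by 0.32 ± 0.04 and RPL7L1 by 0.51 ± 0.03 in iR. RPS27 fell by 0.22 ± 0.07 (adjusted p = 0.00738), and RPS27L, a known p53 target, read 33.1, 33.0 and 32.2 FPKM against 32.7, 31.6 and 31.2 FPKM and did not pass (0.04 ± 0.06, adjusted p = 0.562).

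Members with the oligopyrimidine tract and members without it had like medians between genotypes. In iR the 46 tested members with the tract had a median difference of -0.27 and the 20 without it of -0.22, and in iR D3 the medians were -0.34 and -0.35. FAU, whose ribosomal protein is made as a fusion and which lies outside the symbol pattern, fell in both settings, by 0.34 ± 0.11 and 0.38 ± 0.11, and RACK1 did not pass. The counts of the following lists in iR stand against 37.4% of all genes lower and 27.9% higher, and nothing particular to a list is read from them. Of 20 other genes listed as having such a tract, mostly translation factors, 11 fell and 3 rose. Their starts were not checked here. PABPC1, the poly(A)-binding protein, fell by 0.47 ± 0.05 and EIF2S3, a subunit of the initiation factor that brings the first tRNA, rose by 0.65 ± 0.04. Factors for assembly and export of the subunits fell in 25 and rose in 6 of 40, and factors for ribosomal RNA synthesis and processing fell in 22 and rose in 8 of 43. Of 16 genes that control translation of such messages 9 fell and 3 rose, and of 13 factors for decoding and rescue of stalled ribosomes 7 fell and 1 rose, with G3BP1 lower by -0.61 ± 0.05.

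**Figure D3:**
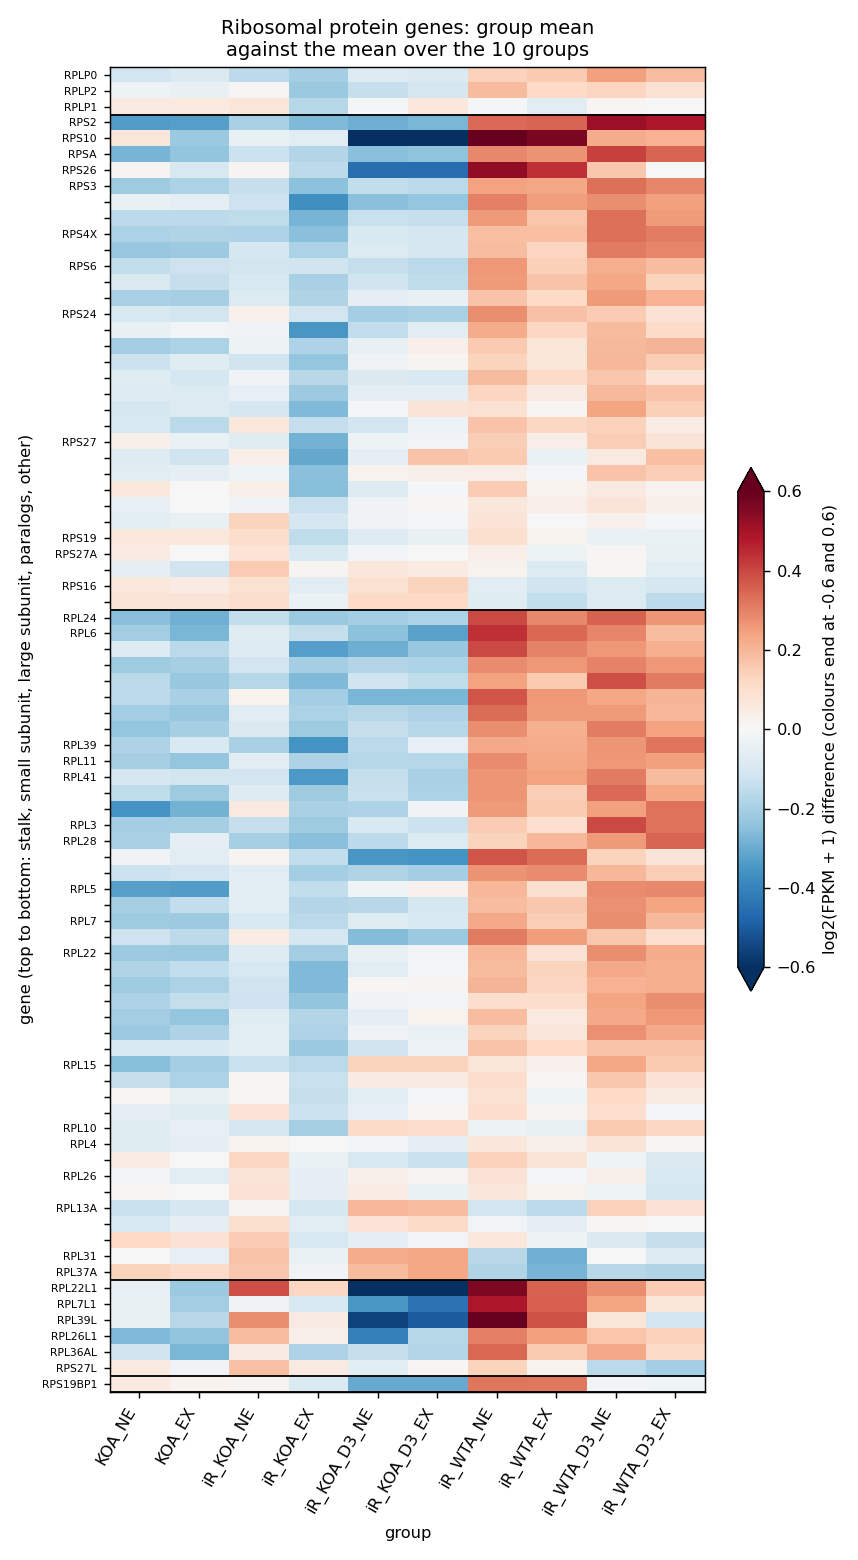
Group means of the 83 tested ribosomal protein genes (y axis, grouped by role and ordered by the wild type minus knockout difference) in the 10 groups (x axis), as log2(FPKM + 1) minus the gene's mean over the 10 groups. Some of the genes that the text names are labelled; red is above and blue below that mean, with colours ending at 0.6 in either direction; most genes are red in the 4 wild type columns, RPL37A and RPL31 at the foot of the large subunit are blue there, and the paralogs RPL22L1 and RPL39L are deepest blue in the knockout with D3.

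With D3 the ribosomal protein genes had mixed changes, and 4 of 6 tested paralogs and 8 proteins of the subunits fell in both genotypes. In the unexposed iR wild type 12 members rose and 13 fell with D3 (22.3% and 26.3% of all genes tested), and in the unexposed iR knockout 4 rose and 20 fell (19.2% and 34.5%). In each direction and genotype the members that passed were a smaller share of the 83 tested than that of all genes. The split depended on the scaling: with median-of-ratios, quantile and nuclear-total scaling it was 19 and 9, 23 and 13, and 21 and 14 in the wild type, and 18 and 12, 19 and 17, and 17 and 16 in the knockout. Most of the falls were shared by both genotypes, but only a minority of the wild type rises were. All 13 members that fell in the wild type also fell in the knockout (65.0% of the 20 there), and all 4 that rose in the knockout also rose in the wild type (33.3% of the 12 there); the comparisons share no library, and across members they correlated at r 0.82 and rho 0.85, against r 0.75 over all genes.

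The 13 shared falls were RPL22L1, RPL39L, RPL7L1, RPS27L, RPS10, RPS26, RPS24, RPL6, RPL14, RPL19, RPL21, RPL35 and RPS19BP1. RPL22L1, whose protein takes the place of RPL22 in some ribosomes and also acts in splicing, read 49.0, 51.6 and 44.8 FPKM in the unexposed iR knockout and 22.9, 20.0 and 20.8 FPKM with D3. The groups were far apart, at -1.15 ± 0.06 (adjusted p = 5.31e-14). In the wild type it read 55.6, 54.9 and 53.6 FPKM without and 45.1, 44.5 and 45.0 FPKM with D3, a smaller difference of -0.28 ± 0.06 (adjusted p = 0.000694). RPL22 itself did not pass in either genotype (0.03 ± 0.04 in the knockout and 0.08 ± 0.04 in the wild type).

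RPL39L fell with D3 in both genotypes, from 24.6, 26.6 and 25.8 FPKM to 14.4, 13.9 and 13.5 FPKM in the knockout (-0.84 ± 0.08, adjusted p = 3.52e-09) and by 0.53 ± 0.08 in the wild type (adjusted p = 6.93e-06). Its partner RPL39 read 1030, 1069 and 1044 FPKM without and 1126, 1065 and 1031 FPKM with D3 in the knockout, and did not pass (0.04 ± 0.07). RPL7L1 fell by 0.33 ± 0.03 in the knockout and 0.25 ± 0.03 in the wild type, where RPL7 did not pass in either. All 6 tested paralogs fell with D3 in the knockout and 4 in the wild type. RPL22L1, RPL39L and RPL7L1 also fell with D3 in the exposed libraries of both genotypes, RPL22L1 by 0.95 ± 0.06 in the knockout. In the exposed knockout RPL26L1 fell by 0.20 ± 0.07, while RPL36AL (0.02 ± 0.05) and RPS27L (-0.04 ± 0.06) did not pass.

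**Figure D4:**
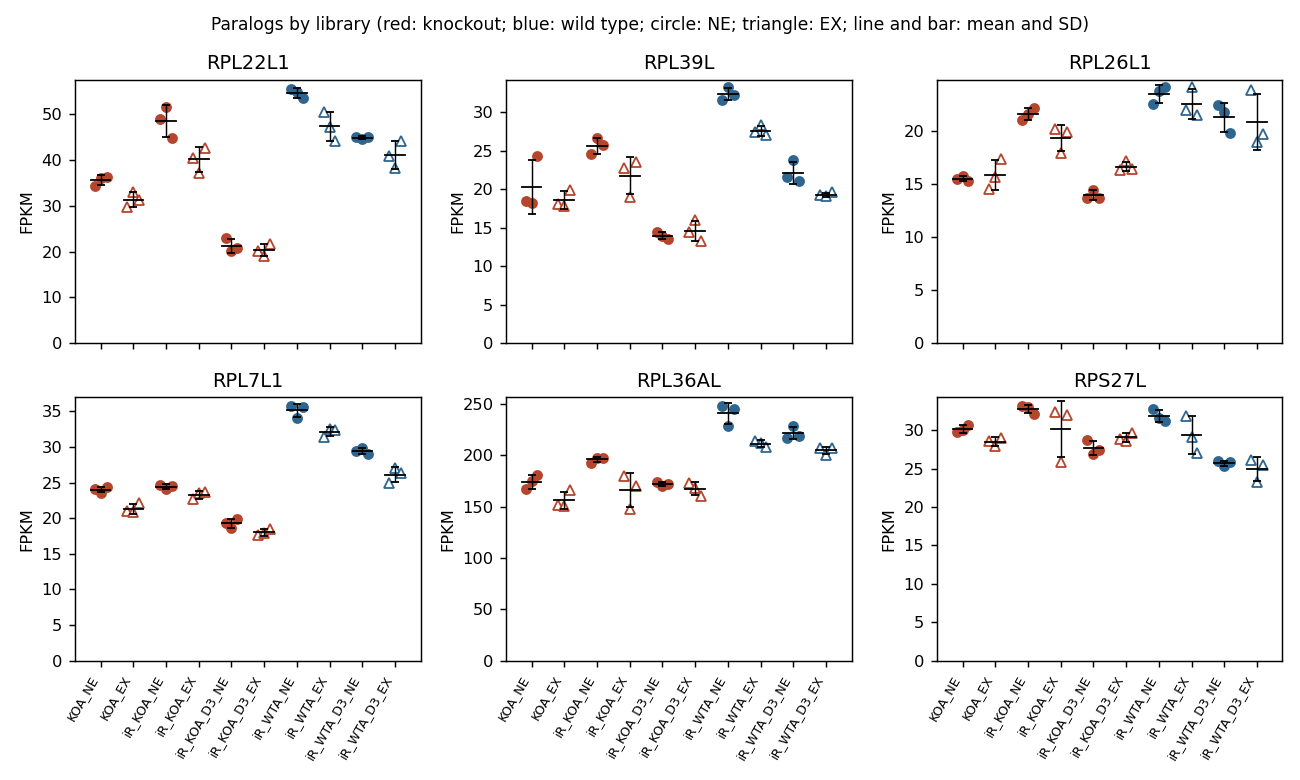
FPKM (y axes, from 0) of the 6 tested paralogs in each library, by group (x axes). Circles are unexposed and triangles exposed libraries, red the knockout and blue the wild type, and lines and bars are mean and SD of 3 libraries; RPL22L1 stands near 20 FPKM in the 6 knockout libraries with D3 and at 37.2 to 51.6 FPKM in the 6 iR knockout libraries without it.

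RPL10, RPL13A, RPL15 and RPS4X rose with D3 in both genotypes. RPL13A, which is also known to leave the ribosome and silence inflammatory messages, read 1492, 1456 and 1541 FPKM in the unexposed iR knockout and 1698, 1775 and 1623 FPKM with D3 (0.18 ± 0.05, adjusted p = 0.00606), and rose by 0.26 ± 0.05 in the wild type (adjusted p = 0.000336). RPL15 rose from 144, 147 and 149.8 FPKM to 181, 175 and 176 FPKM in the knockout (0.27 ± 0.03, adjusted p = 1.89e-08). RPL10, one of the last proteins to join the large subunit, rose by 0.21 ± 0.05 and 0.19 ± 0.05. RPSA went in opposite directions, up by 0.12 ± 0.04 in the wild type (adjusted p = 0.0244; -0.006 under quantile normalization) and -0.12 ± 0.04 in the knockout (adjusted p = 0.0224).

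In the exposed knockout libraries 35 members rose and 10 fell with D3, a count that rests on iR_KOA_EX replicate 2: without it 18 rose and 15 fell (16.4% and 33.3% of all genes). The shares of all genes with that library included are not given here.

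With D3 most genes of the lists for building ribosomes fell, where 26.3% of all genes fell in the wild type and 34.5% in the knockout. Of 43 factors for ribosomal RNA synthesis and processing 38 fell and none rose in the wild type, and 39 fell and none rose in the knockout, with list medians of -0.30 and -0.33 against 0.002 and -0.05 for the ribosomal protein genes. NOP56, a core protein of the particles that methylate ribosomal RNA, fell by 0.97 ± 0.05 in the wild type and 1.02 ± 0.05 in the knockout. Of 40 factors for assembly and export 31 and 32 fell and none rose, among them BRIX1 by 0.67 ± 0.08 and 0.83 ± 0.08. Under the 3 other scalings 33 to 37 of the 43 and 28 to 31 of the 40 still fell. Of the 20 other genes listed as having the tract 10 rose in each genotype and 2 and 4 fell (22.3% and 19.2% of all genes rose). EIF4B, a helper of the initiation helicase, rose by 0.47 ± 0.03 and 0.48 ± 0.03. Among genes that control such messages EIF4EBP1, which holds back the cap-binding protein, fell by 0.40 ± 0.06 in the wild type and 0.85 ± 0.06 in the knockout. The difference between these lists and the ribosomal protein genes was not tested.

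In the unexposed libraries D3 acted differently by genotype on 5 members, each with a more negative change in the knockout: RPL22L1 (-0.87 ± 0.09, adjusted p = 7.91e-08), RPL26L1 (-0.46 ± 0.09, adjusted p = 0.00106), RPS2 (-0.28 ± 0.07, adjusted p = 0.00946), RPSA (-0.24 ± 0.06, adjusted p = 0.00687) and RPL3 (-0.20 ± 0.07, adjusted p = 0.0349). In the exposed libraries RPL22L1 passed again (-0.75 ± 0.09, adjusted p = 9.81e-07), whereas RPL26L1 (-0.09 ± 0.09), RPS2 (-0.14 ± 0.07), RPSA (-0.14 ± 0.06) and RPL3 (-0.14 ± 0.07) did not, and RPL15 passed with a positive interaction (0.16 ± 0.04, adjusted p = 0.00617). Of all genes tested 12.3% had such a lower interaction and 5.19% a higher one, and in the unexposed libraries no member had a higher one by limma, 11 members passing at an unadjusted p under 0.05 in either direction and voom giving the same 0. RPL26L1 read 21.0, 21.6 and 22.2 FPKM in the unexposed iR knockout and 13.7, 14.5 and 13.7 FPKM with D3, and in the wild type 22.6, 23.8 and 24.2 FPKM and 22.4, 21.8 and 19.8 FPKM. The knockout groups were apart and the wild type groups nearly met.

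iR in the unexposed knockout went with 26 members higher and 0 lower, where 18.7% of all genes rose and 19.8% fell (limma; 32 members at an unadjusted p under 0.05, and 29 higher and 0 lower by voom). The median difference was 0.08, against -0.001 for all genes. Of the 26, 15 were among the 42 large-subunit genes tested, 7 among the 31 of the small subunit and 4 among the 6 paralogs. RPL26L1 rose from 15.5, 15.8 and 15.3 FPKM to 21.0, 21.6 and 22.2 FPKM (0.45 ± 0.07, adjusted p = 9.67e-06), and RPL22L1 from 34.3, 36.1 and 36.3 FPKM to 49.0, 51.6 and 44.8 FPKM (0.43 ± 0.06, adjusted p = 7.32e-06). RPL5 rose from 358, 353 and 372 FPKM to 454, 437 and 408 FPKM (0.26 ± 0.04, adjusted p = 3.39e-06). RPL17 rose by 0.41 ± 0.09 (adjusted p = 0.00122), and RPL39L by 0.33 ± 0.08 (adjusted p = 0.00215), with KOA_NE replicate 3 at 24.3 FPKM close to the iR group and the others at 18.2 and 18.5 FPKM.

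The count for iR depended on the mitochondrial share, which was 28.4% ± 1.3 in the unexposed KOA group and 24.6% ± 0.31 in the unexposed iR_KOA group (SD, n = 3 each). With mitochondrially encoded genes left out of the total 14 members rose and 2 fell, and with quantile normalization 16 rose and 4 fell. Without KOA_NE replicate 1 the count was 16 higher. Between the exposed knockout groups, with iR_KOA_EX replicate 2 left out, 17 members rose with iR and 3 fell, where 14.6% and 19.5% of all genes did.

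Within single backgrounds exposure changed at most 6 of the 83 ribosomal protein genes, apart from iR_KOA, where the count rested on 1 library. In KOA 1 member rose and 4 fell (18.8% and 22.7% of all genes tested), in iR_KOA_D3 1 rose and 1 fell (17.3% and 27.8%), in iR_WTA 0 rose and 6 fell (11.4% and 17.2%), and in iR_WTA_D3 0 rose and 6 fell (15.3% and 26.5%). In iR_KOA 0 rose and 40 fell, where 13.1% and 22.3% of all genes did, but without iR_KOA_EX replicate 2 only RPL22L1, RPL36AL and RPL21 fell and none rose (10.7% and 15.2%). By limma the members that rose numbered 0 in these 3 backgrounds also by voom, and 15, 12 and 60 members passed at an unadjusted p under 0.05 in iR_WTA, iR_WTA_D3 and iR_KOA. Outside iR_KOA the members that fell were a smaller share than that of all genes.

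The library behind the iR_KOA count differed in other ways. It held 28.3% of FPKM in mitochondrially encoded genes, against 24.6% and 24.5% in the other replicates, and the ribosomal protein genes held 7.62%. Its deviation from the mean of the other libraries of its group rose with counted gene length, at Spearman rho 0.40 over all genes and 0.21 over members. RPS29 shows the pattern, with 36.1, 19.9 and 37.6 FPKM in the exposed and 39.6, 38.4 and 40.3 FPKM in the unexposed iR_KOA group, and RPLP1 with 950.5, 579 and 909 FPKM against 965, 958 and 962 FPKM. RPS28, RPS21 and RPS19, the other falls of the largest size, passed with this library and did not without it. The part of length and mitochondrial RNA in these values was not tested. Without iR_KOA_EX replicate 1 the count rose to 63.

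**Figure D5:**
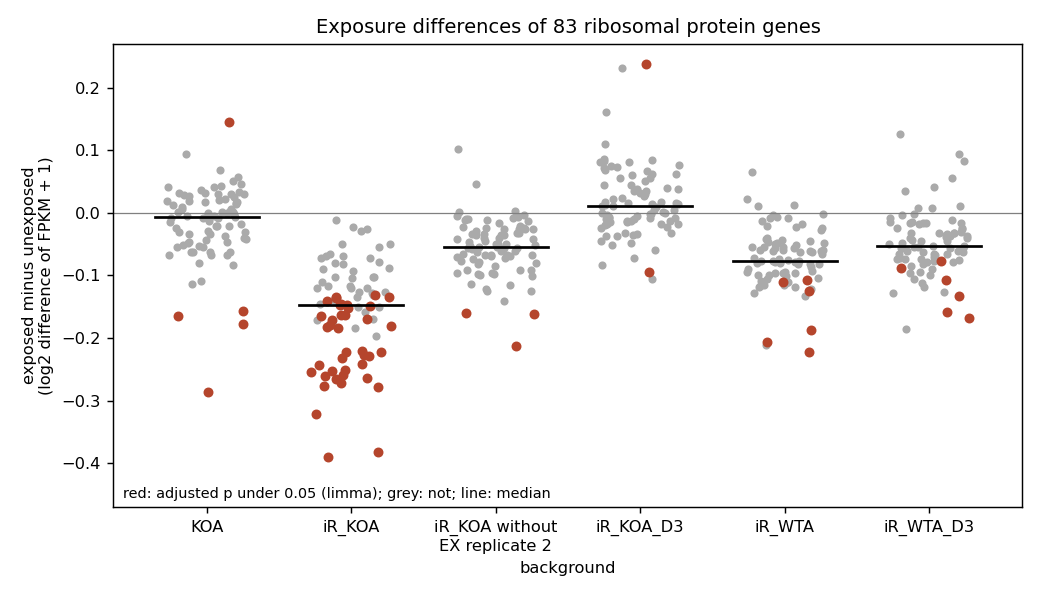
Exposed minus unexposed difference (y axis, log2 of FPKM + 1) of the 83 tested ribosomal protein genes in the 5 backgrounds (x axis), with iR_KOA also shown without its exposed replicate 2. Red points passed an adjusted p of 0.05, grey points did not and lines are medians; the iR_KOA column holds 40 red points with all libraries and 3 without replicate 2.

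Over the mean of the 5 backgrounds 1 member rose and 31 fell, where 25.2% and 42.6% of all genes did. Without iR_KOA_EX replicate 2 it was 2 and 26, where 24.9% and 41.8% of all genes did. The median difference was -0.06, against -0.04 for all genes, and without that library -0.033 against -0.039. The medians lay close together, but the share of members that rose was smaller than that of all genes. Under median-of-ratios scaling 1 rose and 10 fell, and under quantile normalization 1 rose and 51 fell. Of the 83 members 39 fell in 1 background, 4 in 2, 2 in 3, 1 in 4 and none in all 5, and 37 fell in none. With iR_KOA taken without its exposed replicate 2, 70 fell in none, 10 in 1, and only RPL22L1, RPL36AL and RPL7L1 in 3 or more.

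RPL7L1, RPL22L1, RPL36AL and RPL39L were the members with the largest mean falls. RPL7L1 read 24.1, 23.6 and 24.4 FPKM unexposed and 21.0, 20.9 and 22.2 FPKM exposed in KOA, and 29.5, 29.9 and 29.1 FPKM and 25.0, 27.0 and 26.3 FPKM in iR_WTA_D3. The groups did not overlap in either, and it was the member that fell in 4 of the 5 backgrounds, with a mean difference of -0.12 ± 0.02 (adjusted p = 7.93e-08). RPL22L1 fell in 3 backgrounds, with a mean difference of -0.17 ± 0.03 (adjusted p = 1.1e-05), and RPL36AL in 3, with -0.15 ± 0.02 (adjusted p = 3.31e-06). In iR_WTA RPL36AL read 248, 229 and 246 FPKM unexposed and 214, 212 and 208 FPKM exposed. RPL39L had a mean difference of -0.14 ± 0.04 (adjusted p = 0.00165). Of their partners, RPL7 had a mean difference of -0.05 ± 0.02 and RPL22 of -0.06 ± 0.02, RPL39 did not pass (0.02 ± 0.03) and RPL36A was not tested; no paralog was tested against its partner.

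RPL28 was the member that rose over the mean, by 0.06 ± 0.02 (adjusted p = 0.00411). In KOA it read 92.2, 96.5 and 96.9 FPKM unexposed and 108, 102 and 106 FPKM exposed (0.14 ± 0.04, adjusted p = 0.00783), without overlap. In iR_KOA it read 92.5, 93.7 and 98.8 FPKM unexposed and 97.8, 85.2 and 91.8 FPKM exposed, where the groups overlapped. RPS26 fell in iR_KOA, where it did not pass without iR_KOA_EX replicate 2 (-0.10 ± 0.05, adjusted p = 0.186), and in iR_WTA_D3, from 173, 175 and 165 FPKM to 162, 142 and 155 FPKM (-0.16 ± 0.06, adjusted p = 0.0297). RPS10 fell in KOA by 0.29 ± 0.11 (adjusted p = 0.0476), at 2.56, 1.90 and 2.90 FPKM against 1.90, 1.88 and 1.66 FPKM.

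The count in iR_WTA rested in part on iR_WTA_EX replicate 3, the lowest of its group for 79 of the 83 members, and without it was 2. The count in iR_WTA_D3 was 1 without iR_WTA_D3_EX replicate 2 and 9 without iR_WTA_D3_EX replicate 1. In KOA it was 2 without KOA_EX replicate 1, and in iR_KOA_D3 it was 1 without iR_KOA_D3_EX replicate 1. Other scalings also moved the split: quantile normalization gave 2 higher and 20 lower in KOA and 2 and 7 in iR_KOA_D3, and median-of-ratios scaling 1 and 0 in iR_KOA_D3 and 1 and 1 in iR_WTA_D3. Over the mean of the backgrounds, of the 40 factors for assembly and export 21 fell and 10 rose, and of the 43 for ribosomal RNA synthesis and processing 19 fell and 8 rose, where 42.6% and 25.2% of all genes did.

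Whether exposure acted differently between backgrounds was tested as such. By limma, exposure by genotype gave 0 members in iR, where 0.273% of all genes were higher and 0.265% lower (0 members at an unadjusted p under 0.05, 0 by voom). It gave 0 members in iR D3, against 1.24% and 1.14% of all genes (limma; 2 members at an unadjusted p under 0.05, 0 by voom, 1 in limma without iR_WTA_D3_EX replicate 1). Exposure by iR in the knockout gave 0 members, against 1.66% and 3.42% (limma; 16 unadjusted, 1 by voom), but 4 without iR_KOA_EX replicate 1. Exposure by D3 in the wild type gave 0 members, against 0.753% and 0.918% (limma; 2 unadjusted, 0 by voom). Exposure by D3 in the knockout gave 1 member, RPL26L1, where 1.74% of all genes had a higher and 2.4% a lower interaction (40 members unadjusted). RPL26L1 read 21.0, 21.6 and 22.2 FPKM unexposed and 20.2, 18.0 and 19.9 FPKM exposed without D3, and 13.7, 14.5 and 13.7 FPKM unexposed and 16.3, 17.2 and 16.4 FPKM exposed with D3. Without D3 the exposed libraries lay below the unexposed ones, where the difference did not pass (-0.15 ± 0.07, adjusted p = 0.0825). With D3 the exposed libraries lay above, an interaction of 0.39 ± 0.09 (adjusted p = 0.0205), and this rise passed on its own (0.24 ± 0.07, adjusted p = 0.00524). The count of exposure by D3 in the knockout rose to 10 without iR_KOA_EX replicate 1. Leaving out replicate 1 gives more weight to iR_KOA_EX replicate 2, the library that stood apart. For the interactions by iR and by D3 in the knockout, the unadjusted counts without replicate 2 are not given here.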

How the data were processed

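RNA from 30 A549 libraries was extracted with TRIzol, selected with oligo(dT) and randomly primed, per the labels' protocols. Per the submitters' processing notes, the tools were fastp, HISAT2 and HTSeq, without versions, and the build was GRCh38; annotation and strand setting: not given in the sources used here. The authors deposited 1 FPKM value per gene and library. Columns were assigned by name, and 6 columns that match no sample were not used. Whole reads could be recovered from the FPKM steps for all 26801 genes (tolerance 0.01).

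The members and gene lists were chosen with earlier results of these data known. Values were tested as log2(FPKM + 1) with limma 3.58.1 (R 4.3.3, mean-variance trend) over 12086 genes (a value of 1 FPKM or more in 3 libraries or more), in 1 model of 10 groups with 20 residual degrees of freedom. P-values were two-sided and adjusted by Benjamini-Hochberg within each of 17 comparisons, with a threshold of 0.05; differences understate changes of low genes. The fit was also run on simulated data with known changes, in which genes varied independently. Members moved as a block between replicates here, so that run does not bear on their counts. No score over members was tested.

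Members named are those of fixed roles (the stalk, well-known subunit proteins, paralog pairs) and, in each comparison, up to 4 past the threshold with the largest rise and fall (3 for interactions); from each pathway list up to 2. RPL14, RPL19, RPL21, RPL35, RPL6, RPS7, RPS24, RPL37 and others outside this rule were named after their values were seen. Alternatives were median-of-ratios, quantile and nuclear-total scaling, a pseudocount of 0.1, no filter, the compared groups alone, a replicate block and leaving out each library. Limma voom on the recovered reads, the exposed libraries in place of the unexposed, and comparisons without iR_KOA_EX replicate 2 were added after seeing the data. RefSeq tables gave starts for 68 members; protein sequences were not analysed here. Results for some genes are not reported here.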

Additional observations from a re-analysis of the deposited data

Results flagged for a closer look

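For 6 results the effect of one factor differed between the levels of another, by a test of the difference itself (limma, interaction, all genes). The effect of D3 in unexposed iR cells was more negative in the knockout than in the wild type for RPL22L1 (-0.87 ± 0.09, SE; adjusted p = 7.91e-08), RPL26L1 (-0.46 ± 0.09; adjusted p = 0.00106), RPS2 (-0.28 ± 0.07; adjusted p = 0.00946), RPSA (-0.24 ± 0.06; adjusted p = 0.00687) and RPL3 (-0.20 ± 0.07; adjusted p = 0.0349). The effect of exposure in the iR knockout was more positive with D3 than without it for RPL26L1 (0.39 ± 0.09; adjusted p = 0.0205). These were 5 and 1 of the 83 members tested. Of all genes tested 12.3% passed with a more negative D3 effect in the knockout, and 1.74% with a more positive exposure effect with D3. In the exposed libraries the D3 interaction passed again for RPL22L1 (-0.75 ± 0.09; adjusted p = 9.81e-07) and not for RPL26L1 (-0.09 ± 0.09), RPS2, RPSA or RPL3 (-0.14 each; adjusted p = 0.563, 0.211, 0.128 and 0.153). RPL22L1 and RPL26L1 are paralogs with low levels, and RPS2, RPSA and RPL3 are abundant members of the standard ribosome.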

How the results depend on the processing

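Genotype counts (54 to 57 members in iR and 57 to 62 in iR D3 with single libraries left out) stayed within 1.5 times under every alternative run; exposure counts were the least stable. The cause was not tested. Under median-of-ratios scaling exposure called 13 members in iR_KOA, 1 in iR_KOA_D3, 3 in iR_WTA, 2 in iR_WTA_D3 and 11 over the mean. Under quantile normalization it called 22 in KOA, 9 in iR_KOA_D3, 18 in iR_WTA, 17 in iR_WTA_D3 and 52 over the mean, and the interactions 1 (exposure by genotype in iR), 4 (exposure by D3, knockout) and 1 (exposure by D3, wild type). With nuclear genes only in the total, exposure called 9 in KOA and 4 in iR_KOA_D3, iR called 16, and exposure by D3 in the knockout 2. Without the filter exposure called 3 in KOA, 17 in iR_KOA and 2 in iR_WTA_D3. With the compared groups alone it called 9 in KOA, 2 in iR_KOA, 4 in iR_KOA_D3 and 2 in iR_WTA_D3; D3 called 38 in the wild type, and D3 by genotype 8. Voom called 1 for exposure by iR and 2 for exposure by D3 in the knockout. In the exposed libraries D3 called 45 in the knockout and D3 by genotype 2. Leaving out single libraries gave 2 to 4 in KOA, 3 to 63 in iR_KOA, 1 to 2 in iR_KOA_D3, 2 to 8 in iR_WTA, 1 to 9 in iR_WTA_D3, 24 to 46 over the mean, 16 to 26 for iR, 0 to 4 for exposure by iR, 0 to 1 for exposure by genotype in iR D3 and 1 to 10 for exposure by D3 in the knockout.

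Signs reversed for RPL4 between genotypes in iR D3 (0.0085 under median-of-ratios scaling), for RPLP0 and RPSA with D3 in the wild type (-0.055 and -0.00598 under quantile normalization), for RPL36AL with D3 in the knockout (0.017 in the exposed libraries) and for RPL13A with iR (-0.0080 in the exposed libraries). Calls of named results lost, with the sign kept, were 29 of 137 under median-of-ratios scaling, 27 without the filter, 20 under quantile normalization, 8 with the nuclear total, 1 with the pseudocount of 0.1, 1 with voom, 20 of 125 with the compared groups alone, 20 of 92 in the exposed libraries and 175 of 1146 with single libraries left out. Same-numbered libraries shared little deviation on average (mean r 0.02, from -0.45 to 0.34, against a mean of -0.01 for different numbers). Of the 30 libraries, 16 correlated best with their own number out of 3, so some pairing by number is not excluded. A replicate block gave counts within 1.5 times everywhere (58 and 64 for genotype in iR and iR D3, 25 and 23 for D3, 27 for iR, 40 for exposure in iR_KOA) and ended 5 of the 137 named calls. RPS10, with as few as 25 reads, is the tested member most limited by depth.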
